A study of Mus musculus with 56 samples.

Results

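The genes described here are 42 interferon response genes, chosen by name as factors, GTPases, antiviral genes and class I presentation genes that interferon induces. They comprise 3 transcription factors, 17 antiviral effectors and nucleic acid sensors, 7 guanylate-binding proteins, 4 immunity-related GTPases, 10 genes of antigen presentation by MHC class I and 1 immune checkpoint ligand. All 42 symbols matched 1 row each among the 47937 genes listed, and their rows were read in every library.

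Interferons are cytokines that switch cells into an antiviral and antimicrobial state. IFN-γ, made by TH1 cells, binds the receptor chains Ifngr1 and Ifngr2, and the kinases Jak1 and Jak2 then pass the signal to genes that carry a DNA element called GAS. Type I interferons bind Ifnar1 and Ifnar2, act through Jak1 and Tyk2, and bring Stat2 and Irf9 to an element called ISRE. The genes switched on include antiviral effectors that block viral RNA or protein, GTPases that attack vacuoles holding pathogens, and the proteasome subunits, peptide transporters and heavy chains that display peptides to CD8 T cells.

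The libraries were RNA-seq of CD4 T cells that were isolated by negative selection from spleen and lymph nodes of C57BL/6 mice, activated with anti-CD3, anti-CD28 and IL-2, and polarized for 4 days. The labels speak of CD4 T cells and the study's methods of naive ones, and negative selection is meant to remove CD8 T, NK, γδ T, B and myeloid cells. TH1 cultures received anti-IL-4, IL-12 at 10 ng/mL and IL-2. TH2 cultures received anti-IFN-γ at 4 µg/mL, IL-4 at 10 ng/mL and IL-2. TH17 cultures received anti-IFN-γ at 10 µg/mL, anti-IL-4, IL-6, TGF-β and IL-1β. Treg cultures received anti-IFN-γ at 4 µg/mL, anti-IL-4, TGF-β and IL-2. TH1 was thus the culture without a blocking antibody to IFN-γ. Mice carried loxP-flanked alleles of Odc, the rate-limiting enzyme of polyamine synthesis, or of Dohh, which completes the hypusine residue that the translation factor eIF5A needs. Animals with Cre recombinase under the CD4 promoter gave the libraries labelled Odc-/- or Dohh-/-, and littermates without Cre gave the WT libraries. The Odc table held 31 libraries, 4 per group except 3 for Odc-/- TH2, whose replicate 1 was not analysed here, and the Dohh table held 24 libraries, 3 per group. The labels do not say which replicates came from separate animals, so p-values measure the spread between these libraries, which may be technical. Total counts per library were 5905374 to 9145214 (Odc table) and 6572148 to 12576933 (Dohh table). Levels are given as CPM, which are counts scaled to a common library size after TMM normalization.

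Subset genes followed the labels in the WT libraries. Tbx21, the TH1 factor, stood at 119 to 205 CPM in WT TH1 of the Odc table and at no more than 25.3 CPM in the other WT subsets. Foxp3 stood at 393 to 639 CPM in WT Treg of the same table. The targeted genes did not follow the labels. The counts cover every exon of a gene, so the floxed exons cannot be read apart from the others. By immunoblot of activated CD4 T cells, the study reported that ODC was deleted and that hypusinated eIF5A was lower in both genotypes. Those cells were taken earlier than day 4. Odc1 was called in none of the 4 comparisons of the Odc table. In TH1 it ranged from 418 to 739 CPM in WT and from 424 to 680 CPM in libraries labelled Odc-/-. The Dohh transcript was called higher in libraries labelled Dohh-/- in TH1, TH2 and Treg, at 47.5 to 148 CPM in TH1 against 34.7 to 38.1 CPM in WT, with a log2 fold change of 1.43 ± 0.26 (SE, adjusted p = 0.000132), and in TH17, where the groups overlapped, it was not called (0.41 ± 0.26). It was also called higher in libraries labelled Odc-/-, by 1.26 ± 0.19, 1.17 ± 0.20 and 1.11 ± 0.19 in TH1, TH2 and Treg. The groups are therefore given by their labels throughout.

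The libraries also differed in markers of other cells. Summed CPM of 6 basophil and mast cell markers rose from 1.24–15.3 in WT to 11.0–298 in libraries labelled Odc-/-, and from 1.22–3.32 to 43.3–1118 in libraries labelled Dohh-/-, and all 6 markers were called in all 8 comparisons. Markers of γδ T cells rose from 7.44–37.4 to 58.9–340 CPM and from 17.0–41.98 to 357–880 CPM, and Tcrg-C1 and Trdc were called higher in all 8 comparisons. B cell markers rose in libraries labelled Odc-/-, where all 6 were called in TH1, TH2 and Treg, and their sum reached 321–561 CPM in TH2 against 31.3–105 CPM in WT. Summed monocyte, macrophage and neutrophil markers exceeded 1000 CPM in 4 libraries, namely replicates 2 and 3 of Dohh-/- TH17, at 8761 and 11522 CPM, and replicates 2 and 3 of Dohh-/- Treg, at 4341 and 4782 CPM. Replicate 1 of these groups stood at 568 and 341 CPM, against 47.7–76.8 CPM in WT TH17 and 17.6–20.96 CPM in WT Treg. In Treg of the Odc table the sum was 93.6–750 CPM against 15.3–34.9 CPM in WT, and replicate 3 of Odc-/- TH17 stood at 586 CPM against 50.6–141 CPM in the other TH17 libraries of that table. For TH2 of the Dohh table, replicates 1, 2 and 3 stood at 18.7, 718 and 63.5 CPM against 5.27–9.14 CPM in WT, where all 5 monocyte markers tested were called higher, and replicate 2 of Dohh-/- TH1 stood at 223 CPM against 47.6–69.9 CPM in WT. Replicates 1 and 3 of Dohh-/- TH1 lay below WT, at 4.39 and 16.7 CPM. For TH1 of the Odc table the labelled libraries also lay below WT, at 5.29–58.6 CPM against 110–145 CPM. Within the Dohh table Cd4 itself lay between 661 and 968 CPM in WT and between 22.1 and 79.7 CPM in libraries labelled Dohh-/-, and Cd5, Cd28 and Cd2 were also lower in each subset. Within TH2 of the Odc table Cd2, Cd3g, Cd3d and Cd4 were lower, Cd4 at 334–353 CPM against 604–742 CPM in WT. Summed over 8 T cell markers, WT libraries held 2693–4640 and 3926–4721 CPM in the Odc and Dohh tables and labelled libraries 2099.5–4001 and 1651–3357 CPM. Of 4 markers of plasmacytoid dendritic cells, a major source of type I interferon, Siglech and Klk1 were at 0 in all 28 WT libraries, while Siglech had 1 to 4 counts in 5 and Klk1 1 or 2 counts in 2 of the 27 labelled libraries. All 4 summed to 5.16–31.1 CPM in WT and 1.26–42.4 CPM in the labelled libraries. In the Dohh table this sum was lower in labelled TH1, at 1.26–3.20 against 10.8–15.5 CPM in WT. It was also lower in labelled Treg, at 7.84–11.8 against 23.03–31.1 CPM. Of 2 markers tested there, lower calls numbered 1 in each of TH1, TH2 and Treg, and 1 was higher in TH2. In TH17 the sum was higher in both tables, at 12.8–16.2 against 7.20–11.4 CPM (Odc) and 13.3–15.7 against 10.98–12.8 CPM (Dohh). In the other groups it overlapped WT. Markers of CD8 T or NK cells, which also make IFN-γ, went in sum from 16.4–41.8 to 153–233 CPM in Treg of the Odc table, from 22.7–26.2 to 88.2–152 CPM in TH17 and from 20.8–26.9 to 175–342 CPM in Treg of the Dohh table. Elsewhere these sums overlapped WT or, in TH2 of the Odc table, lay lower, though single NK genes were called higher there, among them Ncr1 and Klra8 in TH1, TH2 and TH17 of the Odc table. Summed dendritic cell markers overlapped WT in TH1 and lay above it elsewhere. In the Odc table they stood at 18.3–22.9, 15.02–27.6 and 24.8–38.96 CPM against 10.3–15.5, 4.996–9.74 and 4.89–12.8 CPM in WT TH2, TH17 and Treg, and in that of Dohh at 14.8–71.8, 31.8–195 and 23.3–135 CPM against 8.74–11.4, 5.20–8.07 and 4.13–6.998 CPM. In bulk RNA a change in the number of cells of a type and a change in RNA per cell cannot be told apart, and the part of these other cells in the results below was not tested.

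Interferon elements were found near the start of many members, and the stretches below show where the letters lie in genes whose values follow. The promoter windows were taken from RefSeq on build GRCm38.p6 and span 250 bases before the start of the gene to 50 bases after it. At least 1 window was held for 31 of the 42 members, and none for Iigp1, Zbp1, Parp14, Gbp6, Gbp4, Tap2, Rtp4, Usp18, Gbp9, Nlrc5 and Mx1. Each stretch is written 5′ to 3′ on the strand of the gene, and capitals mark ISRE letters, GAAANNGAAA on either strand, or GAS letters, TTCNNNGAA, which may overlap each other. Isg15, Oas1a, Rsad2 and Ifit1 are antiviral genes. Gbp2 and Gbp7 are guanylate-binding proteins that were called in opposite directions in TH17 of the Dohh table. Igtp holds both elements, and Irf1 holds GAS letters alone.
Isg15 (chr4:156200871-156200900, minus strand): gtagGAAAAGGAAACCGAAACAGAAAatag
Oas1a (chr5:120907526-120907555, minus strand): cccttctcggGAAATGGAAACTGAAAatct
Rsad2 (chr12:26456553-26456582, minus strand): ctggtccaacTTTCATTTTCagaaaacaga
Ifit1 (chr19:34640784-34640813, plus strand): gTTTCACTTTCcagtctcagTTTCAGTTTC
Gbp2 (chr3:142620594-142620623, plus strand): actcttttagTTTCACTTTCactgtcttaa
Gbp7 (chr3:142530273-142530302, plus strand): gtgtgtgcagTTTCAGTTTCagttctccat
Igtp (chr11:58199507-58199536, plus strand): ccatTTCTAGGAActGAAACTGAAAgctgt
Irf1 (chr11:53769914-53769943, plus strand): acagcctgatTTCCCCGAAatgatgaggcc

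ISRE letters were present in 16 of the 31 members (51.61%) and in 1079 of 27025 genes with windows of the same length (3.99%), where a gene with several starts was counted once if any of its windows held them. GAS letters were present in 9 of the 31 members (29.03%) and in 9.55% of all these genes. By role, ISRE letters were found in all 4 guanylate-binding proteins with a window, all 3 immunity-related GTPases, 8 of 12 antiviral genes, 1 of 8 class I genes (B2m) and 0 of 3 factors. A match is a description of the letters in this window and not a binding site.

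**Figure D1:**
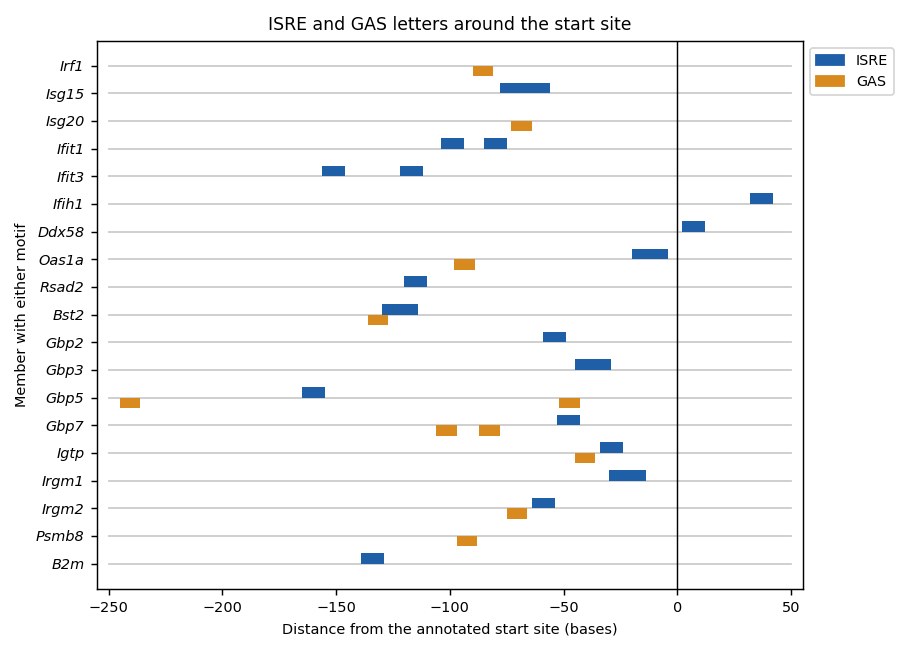
Positions of ISRE letters and GAS letters in the promoter windows of the members that hold either. The horizontal axis gives the distance in bases from the gene's start, and each bar covers the bases of a match or of overlapping matches. Of the 31 members with a window, 16 held ISRE letters and 9 held GAS letters.

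WT cells showed how the genes stood without Cre, and whether TH1 cells, in which IFN-γ was not blocked, held higher levels than the other subsets. Per kilobase of exon, B2m, the light chain of MHC class I, had the highest mean level in WT TH1 of the Odc table at 2547 CPM per kilobase, ahead of the heavy chains H2-D1 at 692 and H2-K1 at 647 CPM per kilobase. Rtp4, Rsad2 and Oasl2 lay at the other end, at 0.0174, 0.0664 and 0.0743 CPM per kilobase. A gene was called when it passed a fold change of 2 and an adjusted p of 0.05 (quasi-likelihood test of edgeR, Benjamini-Hochberg over all genes tested). After the filter on low counts 41 members were tested in the Odc table, from which Rsad2 was removed, and 38 members in that of Dohh, from which Gbp4, Gbp6, Gbp9 and Igtp were removed.

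Against TH2, WT TH1 was higher for 11 of 41 members in the Odc table, with 4.45% of all genes called higher, and lower for 0, with 4.42% of all genes called lower. For the Dohh table, 8 of 38 members were higher and 0 lower, against 3.26% and 2.95% of all genes. Iigp1, a GTPase that attacks parasite vacuoles, stood at 9.39, 11.7, 7.40 and 22.1 CPM in TH1 and at 0.367, 0.534, 0.535 and 0.875 CPM in TH2, and the groups did not overlap. Its log2 difference was 4.44 ± 0.64 (SE, adjusted p = 6.59e-06), and the Dohh table gave 5.09 ± 0.79 (SE, adjusted p = 0.000151). Gbp7 was higher in TH1 by 3.17 ± 0.25 and 3.04 ± 0.39 on the log2 scale, in the Odc and Dohh tables. Nlrc5, the transactivator of MHC class I genes, stood at 292, 313, 272 and 299.8 CPM in TH1 against 44.7, 28.0, 46.0 and 37.8 CPM in TH2, a log2 difference of 2.91 ± 0.13. In the Dohh table the Nlrc5 difference was 2.80 ± 0.22, and every TH1 library exceeded every TH2 library in both tables. Zbp1, a sensor of left-handed nucleic acids, also rose in TH1, by 2.57 ± 0.19 and 2.49 ± 0.24. Without WT TH2 replicate 2 the Irgm1 difference in the Odc table fell from 1.07 ± 0.13 to 0.95, below the call, and the Xaf1 call in the Dohh table (1.83 ± 0.54) was lost without any of WT TH1 replicates 2 and 3 and WT TH2 replicates 1, 2 and 3 (1.51 to 2.13).

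Against TH17, WT TH1 was higher for 12 members and lower for 2 in the Odc table, where 8.52% and 6.39% of all genes were called. Within the Dohh table, 12 were higher and 1 lower, against 6.51% and 5.91%. Usp18, the protease that removes Isg15 from proteins and restrains type I signalling, had the largest difference in the Odc table. It stood at 45.2, 49.9, 39.0 and 52.1 CPM in TH1 against 0.928, 0.585, 1.02 and 1.51 CPM in TH17, a log2 difference of 5.50 ± 0.31 (SE, adjusted p = 6.11e-14), and in the Dohh table the difference was 4.49 ± 0.36. Gbp6 and Gbp4 followed in the Odc table, at 2.67 ± 0.22 and 2.23 ± 0.22. For the Dohh table Gbp7 and Isg15 differed by 3.50 ± 0.40 and 3.14 ± 0.53. Gbp2 was the exception in both tables and was lower in TH1 than in TH17, by log2 differences of -1.18 ± 0.17 and -1.93 ± 0.39. Parp14, the other member lower in TH1, differed by -1.09 ± 0.12 in the Odc table and by -0.99, below the call, without WT TH1 replicate 3. In the Dohh table the calls of Ifit1 (2.0001 ± 0.72) and Xaf1 (1.82 ± 0.54) were lost when single libraries were left out. For Ifit1 these were WT TH17 replicates 1, 2 and 3 and WT TH1 replicates 2 and 3 (1.75 to 2.22), and for Xaf1 WT TH17 replicates 1 and 2 and WT TH1 replicate 2 (1.48 to 1.68).

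Against Treg the members split. WT TH1 was higher for 6 and lower for 9 in the Odc table, where 10.8% and 8.65% of all genes were called, and higher for 5 and lower for 3 in the Dohh table, against 8.28% and 7.26%. Rtp4, a chaperone of receptors that interferon induces, had 1 count in the 4 WT TH1 libraries of the Odc table and 265 in WT Treg, a ratio of 201 (counting interval 35.8 to 7968). Within the Dohh table the ratio was 28.5 (7.55 to 240), from 2 and 61 counts. Irf7, the master factor of type I interferon genes, was lower in TH1 by log2 differences of -1.90 ± 0.30 and -1.12 ± 0.33, and Xaf1, a pro-apoptotic interferon target, by -2.44 ± 0.31 and -1.37 ± 0.49. Ifit3, which binds viral RNA in a complex with Ifit1, was lower in TH1 of the Odc table by -3.20 ± 0.53. In the other direction, Usp18 was higher in TH1 by 2.55 ± 0.24 and 2.07 ± 0.30, Gbp2 by 1.72 ± 0.17 and 2.19 ± 0.40, and Gbp4 by 3.19 ± 0.23 in the Odc table. Gbp7 was called in the Dohh table alone (2.14 ± 0.37), and the difference between the tables was not tested. The Dohh calls of Irf7 and Xaf1 were lost without WT TH1 replicate 1 (-1.02 and -1.09) or replicate 3 (-1.01 and -1.41), and that of Xaf1 also without WT Treg replicate 2 (-1.21) or 3 (-1.36). Within the Odc table the call of Ifit1 (-1.03 ± 0.31) was lost without WT TH1 replicate 3 (-0.91) or WT Treg replicate 1 (-0.97), and that of Mx1 (-1.71 ± 0.64) without WT TH1 replicate 2 or 3 or WT Treg replicate 2 (-1.47 to -1.54). With library totals in place of TMM the median of all genes moved by -0.15 in the Odc table, and the share of calls that were higher in TH1 moved from 55.4% to 45.2%.

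**Figure D2:**
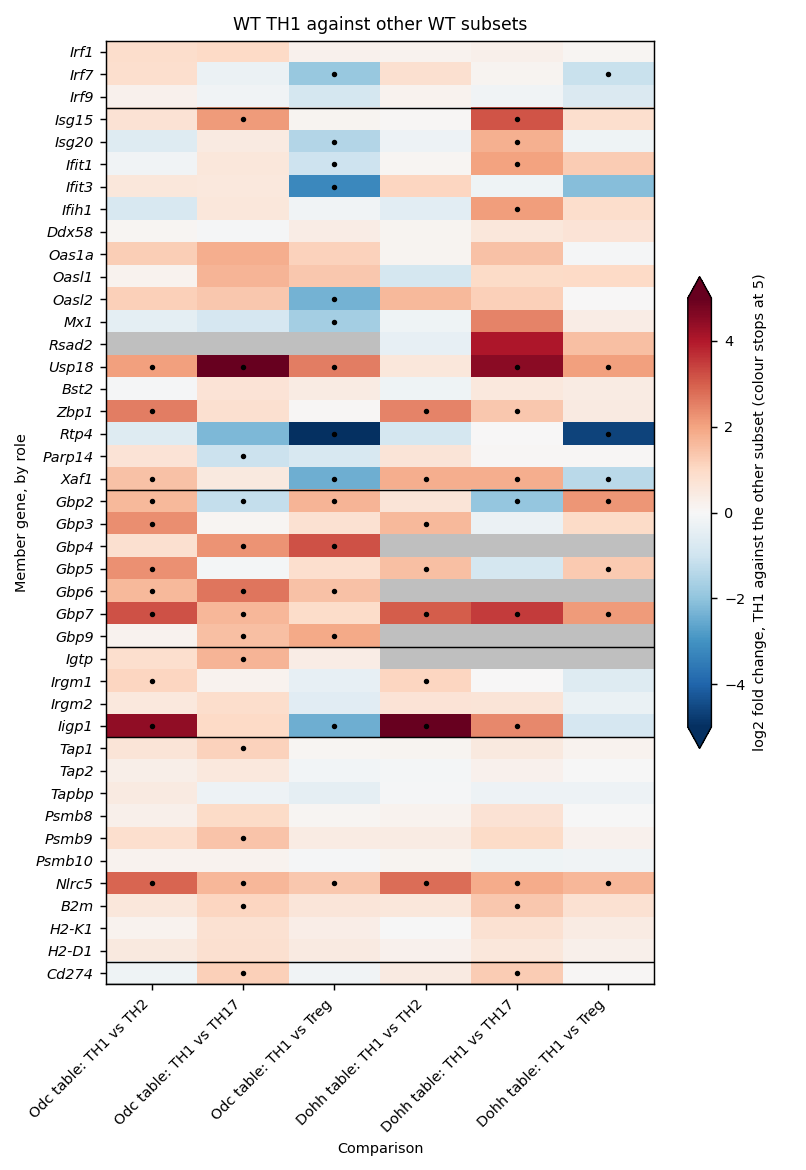
Log2 difference of WT TH1 against WT TH2, TH17 and Treg for each member, in the Odc and the Dohh table. Red is higher in TH1, blue is lower, colour stops at 5, dots mark called members and grey marks members that were not tested. Against TH2 the dots are all red, 11 for the Odc table and 8 for the Dohh table, while against Treg 9 in the Odc table are blue.

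Libraries of each label were compared with WT in each subset to ask how the levels of these genes differed by label. Loss of either enzyme could not be read from the counts, as given above. Of the 42 members, 31 were called in at least 1 of the 8 comparisons, 22 of them as higher only, 4 as lower only (Irf9, Ddx58, Gbp2 and Gbp5) and 5 in both directions (Irf7, Isg20, Usp18, Rtp4 and Xaf1). The 11 called in none were Irf1, Ifit3, Igtp, Irgm2, Tap1, Tap2, Tapbp, Psmb8, H2-K1, H2-D1 and Parp14. In single comparisons 8.35% to 17.5% of all genes were called higher and 7.21% to 15.2% lower. The shares of all genes pooled over the 8 comparisons are not given, so these counts describe the members and show no excess. Isg15, Oas1a, Mx1, Rsad2 and Psmb10 were higher in all 4 subsets of libraries labelled Dohh-/-, and Gbp6 in all 4 subsets of libraries labelled Odc-/-. The share of all genes called higher in all 4 subsets is not given here. Rsad2 had 6, 0 and 2 counts in WT TH1, TH17 and Treg of the Dohh table. Its passing of the low-count filter therefore rested on the labelled libraries, where it was high. Oas1a and Oasl2 were also low in WT. The medians of their WT subset means were 0.523 and 0.354 CPM in the Dohh table and 0.461 and 0.336 CPM in the Odc table. Their passing may have rested on the labelled libraries too. A gene that passes only in this way can hardly be called lower, and the counts of higher calls below include these genes.

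In libraries labelled Odc-/- more members were called higher than lower in TH1, TH2 and TH17, while in Treg both counts lay near the shares of all genes. In TH1, 10 of 41 members (24.4%) were higher and 0 lower, against 10.2% and 11.3% of all genes. In TH2, 10 (24.4%) were higher and 2 (4.88%) lower, against 11.5% and 13.6%. In TH17, 7 (17.1%) were higher and 2 (4.88%) lower, against 8.35% and 7.21%. In Treg, 4 (9.76%) were higher and 6 (14.6%) lower, against 13.9% and 10.1%. The median log2 fold change of the members was 0.52, 0.56, 0.40 and -0.17 in TH1, TH2, TH17 and Treg, where the median of all genes lay between -0.00 and 0.07.

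In libraries labelled Dohh-/- more members were called higher than lower in every subset. In TH1, 9 of 38 members (23.7%) were higher and 1 (2.63%) lower, against 14.8% and 14.2% of all genes. In TH2, 17 (44.7%) were higher and 0 lower, against 14.3% and 11.6%. In TH17, 20 (52.6%) were higher and 2 (5.26%) lower, against 17.3% and 14.1%. In Treg, 11 (28.9%) were higher and 2 (5.26%) lower, against 17.5% and 15.2%. The member medians were 0.51, 0.65, 1.29 and 0.50, and those of all genes lay between 0.01 and 0.03. Without the 4 libraries high in myeloid markers, an alternative added after the data were seen, 16 members were higher and 2 lower in TH17 and 8 were higher and 1 lower in Treg, against 10.1% and 9.98% of all genes in TH17 and 11.1% and 12.5% in Treg. With library totals in place of TMM the median of all genes in TH1 moved by -0.21, and the share of calls that were higher moved from 51.1% to 35.4%.

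**Figure D3:**
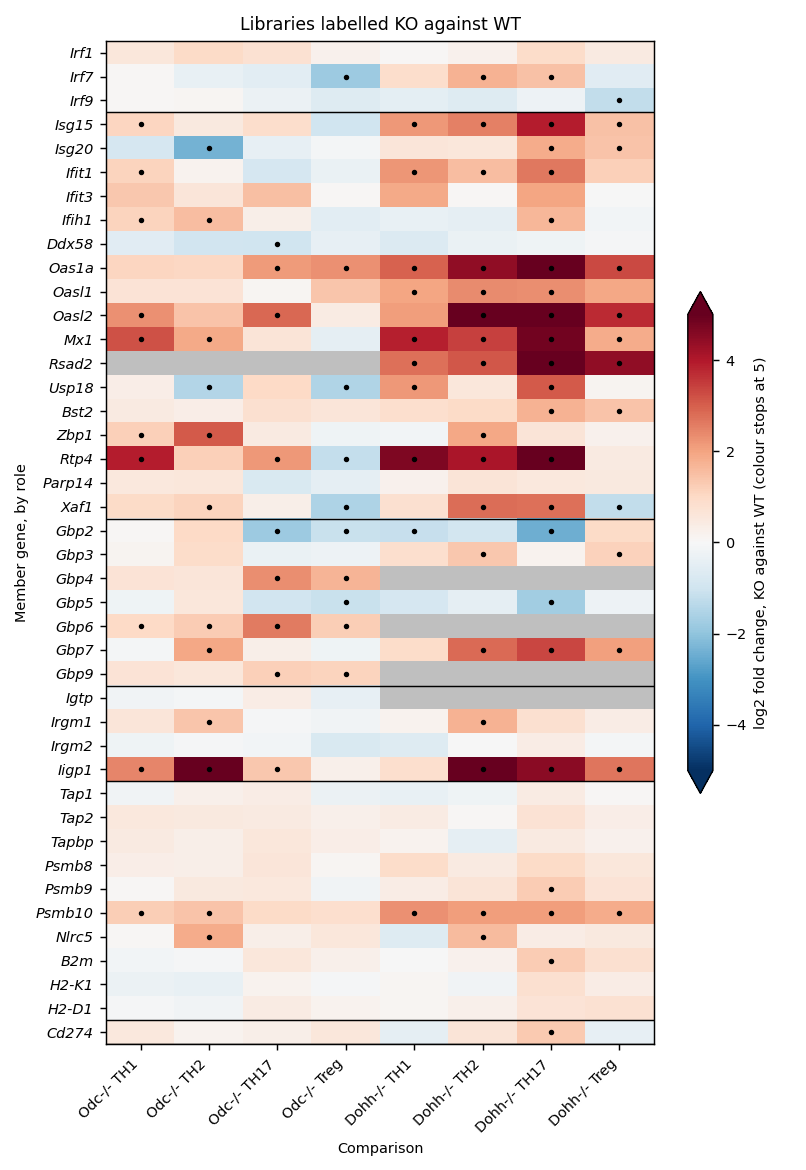
Log2 fold change of libraries labelled Odc-/- or Dohh-/- against WT of the same subset for each of the 42 members, ordered by role. Red is higher than WT, blue is lower, colour stops at 5, dots mark called members and grey marks members that were not tested. The antiviral block of the Dohh columns holds 8, 10, 13 and 7 members called higher in TH1, TH2, TH17 and Treg.

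Of the factors, none was called in TH1 of either table. Irf1, a factor that IFN-γ induces through its GAS element, was called in no comparison, though its TH17 libraries did not overlap. It stood at 95.1, 92.8 and 92.3 CPM in WT and at 185, 193 and 158 CPM in libraries labelled Dohh-/-, for a log2 fold change of 0.94 ± 0.16 (SE, adjusted p = 8.25e-05). Irf7 rose and fell. In Treg it stood at 27.0, 29.1, 30.4 and 20.5 CPM in WT and at 11.0, 3.86, 9.97 and 5.47 CPM in libraries labelled Odc-/-, a fall of 1.82 ± 0.29 on the log2 scale with adjusted p = 8.43e-06, and every labelled library lay below every WT library. In TH2 of the Dohh table it stood at 6.26, 5.71 and 3.70 CPM in WT and at 11.4, 24.2 and 17.4 CPM in libraries labelled Dohh-/-, a rise of 1.75 ± 0.34 (SE, adjusted p = 0.000308), and in TH17 it rose by 1.47 ± 0.33. Irf9, which binds the ISRE together with Stat2, fell in Treg of the Dohh table. It stood at 97.1, 111 and 98.8 CPM in WT and at 47.0, 42.1 and 42.5 CPM in libraries labelled Dohh-/-, which gave a log2 fold change of -1.22 ± 0.23 (SE, adjusted p = 0.000139).

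The antiviral genes made up most of the higher calls in libraries labelled Dohh-/-. Of 17 tested, 8 (47.1%) were higher in TH1, 10 (58.8%) in TH2, 13 (76.5%) in TH17 and 7 (41.2%) in Treg, against 14.8%, 14.3%, 17.3% and 17.5% of all genes, and 1 (5.88%) was lower, in Treg, against 15.2%. Rsad2, and perhaps Oas1a and Oasl2, were tested only through the labelled libraries, as given above. These shares therefore hold calls that were likely beforehand. Their median log2 fold changes were 1.96, 1.94, 2.64 and 1.19. Several of these rises in TH17 and Treg were smaller without the 4 libraries high in myeloid markers, with the values given below. That alternative leaves 1 labelled library in each of these groups. Isg15, a ubiquitin-like protein that is joined to host and viral proteins, stood in TH1 at 2.73, 4.18 and 7.07 CPM in WT and at 16.3, 23.2 and 23.4 CPM in libraries labelled Dohh-/-. Its log2 fold change was 2.18 ± 0.42 (SE, adjusted p = 0.000222). In TH2 it stood at 3.54, 5.39 and 4.37 CPM in WT and at 19.4, 23.9 and 32.9 CPM in libraries labelled Dohh-/-, for a log2 fold change of 2.52 ± 0.42 (SE, adjusted p = 6.81e-05). In TH17 the libraries stood at 0.404, 0.780 and 0.346 CPM in WT and at 4.97, 6.19 and 12.99 CPM in libraries labelled Dohh-/-, and the log2 fold change was 3.92 ± 0.52 (SE, adjusted p = 4.73e-06). In Treg it stood at 1.51, 3.77 and 2.64 CPM in WT and at 4.64, 5.45 and 11.4 CPM in libraries labelled Dohh-/-, again without overlap, and the rise was 1.47 ± 0.43 (SE, adjusted p = 0.00686), which was lost without Dohh-/- replicate 3 (0.92) or WT replicate 1 (1.11).

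Oas1a, which makes the short adenylate chains that activate RNase L, rose from near the limit of detection. In TH17 it stood at 0.0807, 0.195 and 0.346 CPM in WT and at 2.84, 12.4 and 19.3 CPM in libraries labelled Dohh-/-, which gave a log2 fold change of 5.79 ± 0.85 (SE, adjusted p = 1.41e-05). In TH2 it stood at 0.905, 0.211 and 0.336 CPM in WT and at 4.62, 15.4 and 14.1 CPM in libraries labelled Dohh-/-, for a log2 fold change of 4.45 ± 0.75 (SE, adjusted p = 7.81e-05). The rises in TH1 and Treg were 2.94 ± 0.75 and 3.29 ± 0.73, and no labelled library overlapped WT in any subset. Mx1, a gene of the Mx family of GTPases, stood in TH1 at 0.414, 0.996 and 0.897 CPM in WT and at 4.29, 5.05 and 24.5 CPM in libraries labelled Dohh-/-, which gave a log2 fold change of 3.88 ± 0.65 (SE, adjusted p = 6.16e-05), with replicate 3 above the others. Its rises in TH2 and TH17 were 3.42 ± 0.64 and 4.83 ± 0.83. In Treg the rise of 1.85 ± 0.68 was lost without Dohh-/- replicate 3 (1.26) or WT replicate 1, 2 or 3 (1.72 to 1.83). Rsad2, viperin, which makes a chain-terminating nucleotide, had 0 counts in the 3 WT TH17 libraries and 36 in those labelled Dohh-/-, at least 12.99-fold higher when the WT group is set to a floor of 3 counts. In Treg its ratio was 26.1 (counting interval 6.82 to 222), and the log2 fold changes in TH1 and TH2 were 2.75 ± 0.88 and 3.11 ± 0.82.

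Other antiviral genes rose in some subsets of the Dohh table. Oasl2, a relative of Oas1a, stood in TH2 at 0.247, 0 and 0.224 CPM in WT and at 1.89, 13.9 and 11.3 CPM in libraries labelled Dohh-/-, for a log2 fold change of 5.69 ± 1.12 (SE, adjusted p = 0.000411). It rose by 5.30 ± 1.08 in TH17 and 3.71 ± 0.95 in Treg, where replicate 1 stood at 0.994 CPM and replicates 2 and 3 at 8.38 and 11.4 CPM. Usp18 stood in TH1 at 22.9, 28.3 and 29.6 CPM in WT and at 107, 108 and 145 CPM in libraries labelled Dohh-/-, which gave a log2 fold change of 2.16 ± 0.28 (SE, adjusted p = 4.47e-06), and rose by 3.07 ± 0.36 in TH17. In TH2 and Treg its fold changes were 0.58 ± 0.28 and 0.12 ± 0.31, not called. Rtp4 had 2 counts in WT TH1 and 48 in the labelled libraries, a ratio of 29.6 (7.75 to 251), and 2 and 110 counts in TH17, a ratio of 59.5 (16.1 to 498). Bst2, tetherin, which holds budding virions on the cell, rose by 1.72 ± 0.33 in TH17 and 1.44 ± 0.33 in Treg. The TH17 call was lost without Dohh-/- replicate 3 (0.98). The calls of Oasl1 in TH1 (1.96 ± 0.78) and TH17 (2.31 ± 0.86) were lost without Dohh-/- TH1 replicate 1 or 2 or WT TH1 replicate 1 or 3 (1.61 to 1.99), and without Dohh-/- TH17 replicate 3 or WT TH17 replicate 1 or 2 (0.86 to 1.93). The call of Ifit1 in TH2 (1.55 ± 0.58) was lost without Dohh-/- replicate 3 or WT replicate 1 or 3 (1.02 to 1.57).

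Without the myeloid-rich libraries, Isg15, Oas1a, Oasl2, Mx1 and Xaf1 lost their Treg calls (0.81, 1.70, 0.88, 1.65 and -1.69 on the log2 scale), and Ifit1, Ifih1, Oasl1, Oasl2 and Cd274 lost their TH17 calls (2.14, 1.10, 0.23, 2.89 and 0.83). In this alternative 1 labelled library is left in each of these groups, and it is assumed to vary like the other groups.

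In libraries labelled Odc-/-, of 16 antiviral genes tested, 7 (43.8%) were higher in TH1, 4 (25.0%) in TH2, 3 (18.8%) in TH17 and 1 (6.25%) in Treg, against 10.2%, 11.5%, 8.35% and 13.9% of all genes. Oas1a and Oasl2, low in WT, are counted here too, with the limit of the low-count filter given above. Lower calls were 2 (12.5%) in TH2, 1 (6.25%) in TH17 and 3 (18.8%) in Treg, against 13.6%, 7.21% and 10.1%. Their medians were 1.06, 0.64, 0.54 and -0.38. Mx1 stood in TH1 at 1.01, 0.427, 0.581 and 1.63 CPM in WT and at 15.4, 4.89, 8.44 and 5.32 CPM in libraries labelled Odc-/-, for a log2 fold change of 3.20 ± 0.61 (SE, adjusted p = 9.84e-05), and rose by 1.91 ± 0.61 in TH2. Zbp1 in TH2 stood at 9.30, 7.74, 9.36 and 9.33 CPM in WT and at 80.8, 65.1 and 78.0 CPM in libraries labelled Odc-/-, which gave a log2 fold change of 3.06 ± 0.20 (SE, adjusted p = 4.43e-11), and in TH1 Zbp1 rose by 1.18 ± 0.17. In TH2 of the Dohh table it stood at 8.97, 10.8 and 11.8 CPM in WT and at 23.3, 41.9 and 55.9 CPM in libraries labelled Dohh-/-, a rise of 1.94 ± 0.24. Rtp4 had 1 count in WT TH1 and 22 in libraries labelled Odc-/-, a ratio of 21.4 (3.45 to 881). Oasl2 rose by 2.28 ± 0.62 in TH1 and 2.88 ± 0.75 in TH17. Oas1a rose by 2.13 ± 0.76 in TH17 and 2.27 ± 0.65 in Treg, where the libraries overlapped WT, at 0.318, 0.310, 0.807 and 0.466 CPM in WT and at 4.10, 0.723, 3.88 and 0.652 CPM in libraries labelled Odc-/-.

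The rise of Isg15 in TH1 of the Odc table was near the threshold. It stood at 7.22, 6.26, 6.10 and 12.1 CPM in WT and at 19.2, 13.1, 19.4 and 15.1 CPM in libraries labelled Odc-/-, without overlap, and its log2 fold change of 1.07 ± 0.35 (SE, adjusted p = 0.00998) fell below 1 without Odc-/- replicate 1 or 3 or WT replicate 2 or 3 (0.95 to 0.99). In Treg the direction turned. Isg15 stood at 5.61, 6.82, 6.45 and 9.79 CPM in WT and at 3.96, 2.17, 5.95 and 2.35 CPM in libraries labelled Odc-/-, for a log2 fold change of -0.99 ± 0.37 (SE, adjusted p = 0.0241), not called. The TH1 calls of Ifit1 (1.11 ± 0.32) and of Ifih1, the sensor MDA5 (1.11 ± 0.25), were lost without Odc-/- replicate 1 or WT replicate 3 (0.89 and 0.98 for Ifit1) and without Odc-/- replicate 2 or WT replicate 1 or 3 (0.85 to 0.97 for Ifih1). Ifih1 also rose in TH2, where it stood at 12.5, 14.9, 12.3 and 16.8 CPM in WT and at 52.9, 32.4 and 37.6 CPM in libraries labelled Odc-/-, which gave a log2 fold change of 1.54 ± 0.25 (SE, adjusted p = 1.59e-05). In TH17 the Oas1a call was lost without Odc-/- replicate 3 or WT replicate 2 or 4 (1.62 to 1.88) and that of Rtp4 (2.18 ± 0.63) without Odc-/- replicate 3 (1.45), the library with 586 CPM of myeloid markers, whose part was not tested. Ddx58, the sensor RIG-I, fell in TH17. It stood at 38.3, 37.6, 38.1 and 34.0 CPM in WT and at 21.9, 12.0, 18.8 and 20.7 CPM in libraries labelled Odc-/-, for a log2 fold change of -1.01 ± 0.17 (SE, adjusted p = 4.87e-05), and was below the call without Odc-/- replicate 2 (-0.85) or WT replicate 1 or 3 (-0.995 and -0.997).

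Among the antiviral genes, 4 were called in both directions. The share of all genes called in both directions is not given, so this count describes these genes only. Usp18 fell in TH2 of the Odc table, from 14.9, 12.0, 10.8 and 6.85 CPM in WT to 2.39, 5.22 and 4.52 CPM in libraries labelled Odc-/-, which gave a log2 fold change of -1.46 ± 0.29 (SE, adjusted p = 0.000129). It also fell in Treg, by 1.52 ± 0.28 on the log2 scale, while TH1 and TH17 of the Dohh table rose as above. Isg20, an exonuclease that degrades viral RNA, fell in TH2 of the Odc table. It stood at 14.9, 13.3, 20.3 and 6.27 CPM in WT and at 1.59, 4.08 and 2.33 CPM in libraries labelled Odc-/-, for a log2 fold change of -2.36 ± 0.48 (SE, adjusted p = 0.00019). In TH17 of the Dohh table it stood at 3.23, 3.41 and 3.00 CPM in WT and at 12.7, 10.8 and 11.3 CPM in libraries labelled Dohh-/-, a rise of 1.84 ± 0.32 (SE, adjusted p = 7.2e-05), and in Treg it rose by 1.44 ± 0.29. Xaf1 fell in Treg of both tables. In the Odc table it stood at 23.6, 25.8, 23.3 and 19.8 CPM in WT and at 11.8, 6.63, 7.51 and 5.60 CPM in libraries labelled Odc-/-, which gave a log2 fold change of -1.55 ± 0.29 (SE, adjusted p = 6.39e-05). For the Dohh table the fall of 1.25 ± 0.49 was lost without Dohh-/- replicate 1 or 2 or WT replicate 2 or 3 (-1.08 to -1.27). Xaf1 rose in TH2 of the Odc table by 1.13 ± 0.41, a call that was lost without Odc-/- replicate 3 (0.53) or WT replicate 2 (0.93) or 3 (1.05). It rose in TH2 and TH17 of the Dohh table by 2.80 ± 0.54 and 2.74 ± 0.54. Rtp4 fell in Treg of the Odc table, where it stood at 5.50, 7.96, 5.65 and 10.1 CPM in WT and at 3.96, 2.89, 3.37 and 2.48 CPM in libraries labelled Odc-/-, for a log2 fold change of -1.20 ± 0.38 (SE, adjusted p = 0.00767).

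**Figure D4:**
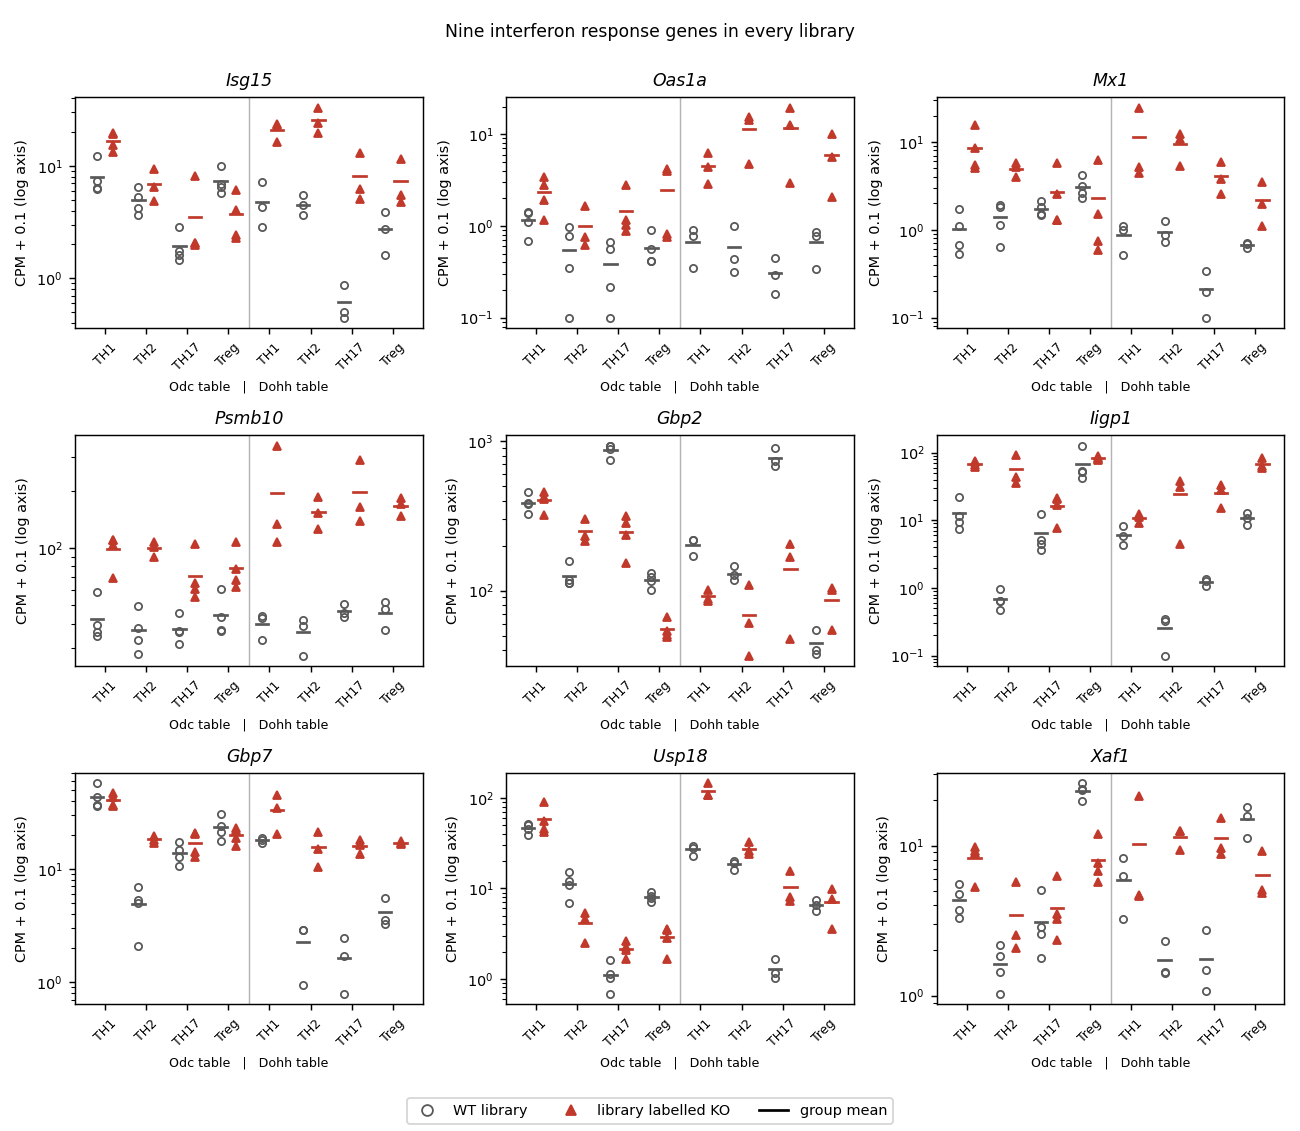
CPM in every library of Isg15, Oas1a, Mx1, Psmb10, Gbp2, Iigp1, Gbp7, Usp18 and Xaf1, by subset, table and label. The vertical axis is log-scaled CPM with 0.1 added, each point is 1 library and the bars are group means. In TH17 the Dohh-/- libraries of Isg15 sit between 4.97 and 12.99 CPM, above the WT libraries at 0.346 to 0.780 CPM, while those of Gbp2 sit below WT.

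The guanylate-binding proteins, which coat and break open vacuoles that hold bacteria, did not move as 1 block. Of 7 tested in the Odc table, 1, 2, 3 and 3 were higher in TH1, TH2, TH17 and Treg, and 1 and 2 were lower in TH17 and Treg, a group too small to read against the 8.35% to 13.9% of all genes called higher and 7.21% and 10.1% called lower. Gbp6 was higher in each subset. In TH17 it stood at 3.02, 2.58, 3.73 and 5.11 CPM in WT and at 15.4, 26.3, 22.96 and 22.3 CPM in libraries labelled Odc-/-, which gave a log2 fold change of 2.58 ± 0.22 (SE, adjusted p = 3.58e-09). In TH2 and Treg it rose by 1.26 ± 0.21 and 1.21 ± 0.20. The rise of 1.01 ± 0.18 in TH1 was at the threshold, stood at 0.97 with relative log expression factors or DESeq2, and was below the call without any of Odc-/- replicates 1, 3 and 4 or WT replicates 1 and 4 (0.92 to 0.998). On the same strand, 29.0% of the exon length of Gbp6 overlaps another annotated gene, so its counts are uncertain. Gbp4 stood in TH17 at 36.9, 25.6, 27.0 and 58.7 CPM in WT and at 134, 207, 204 and 189 CPM in libraries labelled Odc-/-, for a log2 fold change of 2.31 ± 0.22 (SE, adjusted p = 3.43e-08), and rose by 1.71 ± 0.23 in Treg. Gbp9 rose by 1.19 ± 0.19 and 1.11 ± 0.19, and its Treg call was lost without Odc-/- replicate 1 (0.84). Gbp4, Gbp6, Gbp9 and Igtp had 0, 2, 0 and 2 counts in the whole Dohh table against up to 318, 50.1, 61.7 and 417 CPM in the Odc table, and no Dohh value is given for them. The cause was not tested.

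Gbp2 fell in TH17 in both tables. It stood at 933, 928, 879.6 and 752 CPM in WT and at 313, 153, 283 and 236 CPM in libraries labelled Odc-/-, which gave a log2 fold change of -1.83 ± 0.17 (SE, adjusted p = 1.64e-08). In the Dohh table it stood at 739, 896 and 681 CPM in WT and at 204, 168 and 47.3 CPM in libraries labelled Dohh-/-, for a log2 fold change of -2.46 ± 0.40 (SE, adjusted p = 5.02e-05). The groups did not overlap in either table. Gbp5, which assembles with inflammasomes, fell by 1.74 ± 0.30 on the log2 scale in the Dohh table, from 110.2, 102 and 106 CPM in WT to 43.3, 35.4 and 15.9 CPM in libraries labelled Dohh-/-. Within the Odc table its change of -0.95 ± 0.16 was not called. In Treg of the Odc table Gbp2 and Gbp5 fell by 1.10 ± 0.17 and 1.10 ± 0.16, while in Treg of the Dohh table Gbp2 was at 0.97 ± 0.39, not called. Gbp2 also fell in TH1 of the Dohh table, by 1.14 ± 0.39, and this was lost without Dohh-/- replicate 1 or 2 or WT replicate 2 (-1.07 to -1.13).

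Gbp7, which supports the oxidative burst, rose where it was called. In TH2 of the Odc table it stood at 6.86, 2.001, 4.95 and 5.25 CPM in WT and at 19.6, 18.1 and 16.9 CPM in libraries labelled Odc-/-, which gave a log2 fold change of 1.93 ± 0.26 (SE, adjusted p = 1.56e-06). Within the Dohh table it rose by 2.82 ± 0.39 in TH2 and 2.06 ± 0.37 in Treg. In TH17 it stood at 1.61, 2.34 and 0.693 CPM in WT and at 13.4, 17.9 and 16.3 CPM in libraries labelled Dohh-/-, for a log2 fold change of 3.32 ± 0.40 (SE, adjusted p = 1.54e-06). Gbp3 rose in TH2 of the Dohh table by 1.35 ± 0.26 and in Treg by 1.16 ± 0.25, where the call was lost without WT replicate 2 (0.95). Guanylate-binding proteins are near-identical paralogs in places, so counts may have been split among them.

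Of the immunity-related GTPases, Iigp1 had the largest change of any member in TH2 in either table. In the Odc table it stood at 0.367, 0.534, 0.535 and 0.875 CPM in WT and at 92.1, 35.7 and 43.0 CPM in libraries labelled Odc-/-, which gave a log2 fold change of 6.61 ± 0.59 (SE, adjusted p = 6.57e-09). For the Dohh table it stood at 0.247, 0 and 0.224 CPM in WT and at 4.41, 31.0 and 37.8 CPM in libraries labelled Dohh-/-, for a log2 fold change of 7.12 ± 0.75 (SE, adjusted p = 3.81e-07). The labelled TH2 libraries of the Odc table stood above the WT TH1 libraries of the same table, a difference that was not tested. Iigp1 stood in TH1 at 9.39, 11.7, 7.40 and 22.1 CPM in WT and at 60.9, 75.4, 66.1 and 72.1 CPM in libraries labelled Odc-/-, a rise of 2.44 ± 0.39, and in TH17 it rose by 1.36 ± 0.42. In the Dohh table the TH17 libraries stood at 0.969, 1.27 and 1.15 CPM in WT and at 28.1, 33.3 and 14.96 CPM in libraries labelled Dohh-/-, which gave a log2 fold change of 4.49 ± 0.57 (SE, adjusted p = 3.52e-06), and Treg rose by 2.67 ± 0.48. Irgm1, which guards the cell's own membranes from these GTPases, rose in TH2 of both tables, by 1.41 ± 0.14 and 1.73 ± 0.22. Irgm2 was called in no comparison, and neither was Igtp in the Odc table.

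Of 10 genes of class I presentation tested, 1, 2, 0 and 0 were higher in TH1, TH2, TH17 and Treg of the Odc table, as were 1, 2, 3 and 1 for Dohh, and 0 were lower in either. Of all genes 10.2%, 11.5%, 8.35% and 13.9% were called higher in the Odc table and 14.8%, 14.3%, 17.3% and 17.5% in that of Dohh. Psmb10, a catalytic subunit of the immunoproteasome, stood in TH1 of the Dohh table at 32.7, 43.8 and 42.6 CPM in WT and at 133, 344 and 108 CPM in libraries labelled Dohh-/-, for a log2 fold change of 2.29 ± 0.34 (SE, adjusted p = 1.57e-05). In TH2 it stood at 38.9, 41.98 and 27.1 CPM in WT and at 125, 153 and 184 CPM in libraries labelled Dohh-/-, which gave a log2 fold change of 2.10 ± 0.33 (SE, adjusted p = 4.67e-05). It rose by 2.08 ± 0.33 and 1.87 ± 0.33 in TH17 and Treg, and labelled and WT libraries did not overlap in any subset. Within the Odc table it rose by 1.22 ± 0.22 and 1.43 ± 0.23 in TH1 and TH2, and changes of 0.94 ± 0.22 and 0.83 ± 0.22 in TH17 and Treg were not called. Of its partner subunits, Psmb9 rose in TH17 of the Dohh table by 1.27 ± 0.15, and Psmb8 was called in no comparison, with log2 fold changes from 0.09 to 0.96.

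Nlrc5 was called in TH2 alone. In the Odc table it stood at 44.7, 28.0, 46.0 and 37.8 CPM in WT and at 169.6, 129 and 132 CPM in libraries labelled Odc-/-, for a log2 fold change of 1.87 ± 0.13 (SE, adjusted p = 1.56e-10). Within the Dohh table it stood at 53.2, 39.3 and 42.04 CPM in WT and at 160.0, 132 and 111 CPM in libraries labelled Dohh-/-, which gave a log2 fold change of 1.58 ± 0.21 (SE, adjusted p = 6.92e-06). WT and labelled libraries were separate in both. B2m stood in TH17 of the Dohh table at 704, 771 and 723 CPM in WT and at 1918, 2080.1 and 1239 CPM in libraries labelled Dohh-/-, for a log2 fold change of 1.25 ± 0.20 (SE, adjusted p = 2.91e-05). The transporter genes Tap1 and Tap2, the chaperone Tapbp and the heavy chains H2-K1 and H2-D1 were called in none of the 8 comparisons, with log2 fold changes between -0.44 and 0.81. Cd274, the checkpoint ligand PD-L1, rose in TH17 of the Dohh table, from 20.4, 12.98 and 22.2 CPM in WT to 32.9, 49.2 and 54.7 CPM in libraries labelled Dohh-/-, which gave a log2 fold change of 1.30 ± 0.31 (SE, adjusted p = 0.0018), and was called nowhere else.

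Whether a member's response differed among the 4 subsets was tested with an interaction term. Within the Odc table, 27 of 41 members (65.9%) passed, against 34.8% of all genes, and in the Dohh table, 16 of 38 (42.1%) passed, against 17.9%. The smallest adjusted p values in the Odc table were those of Zbp1 (7.33e-09), Gbp2 (1.66e-08) and Nlrc5 (1.16e-07). All 3 factors, 6 of 7 guanylate-binding proteins and all 4 immunity-related GTPases passed in the Odc table. So did 10 of 16 antiviral genes and 4 of 10 class I genes, while the ligand Cd274 did not. For the Dohh table Isg15, Oas1a, Mx1, Rsad2 and Psmb10, the members called higher in each subset, were not among the 16, and a p that misses the threshold does not show equal responses. Without the 4 myeloid-rich libraries 9 members passed in the Dohh table, against 9.38% of all genes, and without Dohh-/- TH1 replicate 3, 26 did, against 30.3%.

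Both labels were compared by the difference between the Dohh-/- and the Odc-/- contrast with WT, called the Dohh and the Odc effect below, in 1 fit, with 38 members tested. Each effect is taken within its own table, since a table and its gene cannot be told apart. Median WT levels of Gbp7, Gbp5 and Gbp3 were 18.5, 160 and 37.5 CPM in the Odc table and 3.09, 40.4 and 18.5 CPM in the Dohh table. Reads of guanylate-binding proteins may have been assigned unlike in these tables, which was not tested. Differences of effects in this family are therefore uncertain. In TH1, 3 members were more positive for Dohh and 3 more negative, against 5.19% and 4.77% of all genes. Usp18 differed by 1.86 ± 0.36 and Zbp1 by -1.29 ± 0.28, and these 2 calls held whichever replicate number was left out. The other 4 did not, and without 1 number or another Isg20 (1.47 ± 0.54) ranged from 1.28 to 1.63, Psmb10 (1.10 ± 0.39) from 0.50 to 1.22, Gbp2 (-1.18 ± 0.40) from -1.07 to -1.21 where their calls were lost, and Ifih1 (-1.46 ± 0.40) was at -1.01. In TH2, 5 were more positive and 4 more negative, against 5.29% and 3.8%. Isg20 (2.897 ± 0.57), Irf7 (2.11 ± 0.52) and Usp18 (2.03 ± 0.41) were more positive, and Ifih1 (-1.9998 ± 0.39) and Gbp2 (-1.92 ± 0.41) more negative.

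In TH17, 14 members were more positive for Dohh and 0 more negative, against 7.16% and 5.58% of all genes. Mx1 (4.22 ± 1.12), Ifit1 (3.52 ± 0.76), Iigp1 (3.19 ± 0.74), Isg15 (3.09 ± 0.71) and Gbp7 (3.08 ± 0.44) were among them. Without the 4 myeloid-rich libraries 8 were more positive and 0 more negative, against 2.8% and 3.7% of all genes, and Mx1 (3.54), Xaf1 (2.13) and Usp18 (1.63) were among those no longer called. In Treg, 11 were more positive and 0 more negative, against 7.27% and 8.71%. Gbp3 (1.46 ± 0.26), Isg15 (2.496 ± 0.59), Iigp1 (2.42 ± 0.58), Gbp7 (2.32 ± 0.41) and Gbp2 (2.11 ± 0.40) were among them. The limit on guanylate-binding proteins given above holds for those named in TH17 and Treg. Without the 4 libraries 9 were more positive and 1 more negative (Cd274, -1.51), against 6.38% and 6.93%, and Isg20 (1.66), Oasl2 (0.58) and Psmb10 (1.14) were no longer called. With library totals in place of TMM the median of all genes in the TH1 comparison moved by -0.23, the share of calls that were more positive moved from 52.1% to 23.8%, and 1 member was more positive and 5 more negative.

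The ligand and receptors of the pathway were read beside the members. Ifng, which encodes IFN-γ, was higher in all 8 comparisons. In TH2 of the Dohh table it stood at 3.70, 2.54 and 2.69 CPM in WT and at 419, 379 and 1499.9 CPM in libraries labelled Dohh-/-, for a log2 fold change of 7.99 ± 0.59 (SE, adjusted p = 4.19e-09). In TH1 of that table it stood at 195, 239.8 and 271 CPM in WT and at 2775, 4242 and 2346 CPM in libraries labelled Dohh-/-, which gave a log2 fold change of 3.73 ± 0.47 (SE, adjusted p = 3.15e-06), and it rose by 6.37 ± 0.56 and 5.58 ± 0.53 in TH17 and Treg. In TH2 of the Odc table it stood at 6.86, 3.60, 7.08 and 12.7 CPM in WT and at 105, 106 and 65.0 CPM in libraries labelled Odc-/-, for a log2 fold change of 3.61 ± 0.52 (SE, adjusted p = 4.82e-06), and in TH17 and Treg it rose by 3.96 ± 0.49 and 3.63 ± 0.48. In TH1 of the Odc table the groups overlapped, at 592, 696, 519 and 1913 CPM in WT and at 1052, 2291, 2894 and 2000.3 CPM in libraries labelled Odc-/-, and the rise of 1.15 ± 0.42 (SE, adjusted p = 0.0228) was lost without Odc-/- replicate 3 or WT replicate 1, 2 or 3 (0.93 to 1.03). TH2, TH17 and Treg cultures held an antibody that blocks IFN-γ protein, which the transcript does not show. Summed markers of CD8 T or NK cells and of γδ T cells, given above, lay higher in 3 and in all 8 of these groups, and their part in the Ifng values was not tested. Of the other 9 interferon genes listed, none passed the filter on low counts.

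Of 9 receptor and signalling genes in the Dohh table, 4, 2, 3 and 2 were lower in TH1, TH2, TH17 and Treg, and 1 was higher, in TH2. Of all genes 14.2%, 11.6%, 14.1% and 15.2% were called lower in these subsets, and 14.3% higher in TH2. Ifngr2, the signalling chain of the IFN-γ receptor, stood in Treg at 125, 104 and 102 CPM in WT and at 15.8, 28.0 and 29.7 CPM in libraries labelled Dohh-/-, which gave a log2 fold change of -2.17 ± 0.26 (SE, adjusted p = 9.82e-07). It fell by 2.4996 ± 0.32, 1.53 ± 0.26 and 1.51 ± 0.26 in TH1, TH2 and TH17. Jak2 stood in TH2 at 734, 712 and 822 CPM in WT and at 128, 175 and 137 CPM in libraries labelled Dohh-/-, for a log2 fold change of -2.37 ± 0.22 (SE, adjusted p = 6.84e-08), and was lower in the other 3 subsets by 1.59 ± 0.22, 1.59 ± 0.22 and 1.71 ± 0.22 on the log2 scale. Ifngr1, the binding chain, rose in TH2 of the Dohh table by 1.91 ± 0.28 and fell in TH17 and Treg of the Odc table by 1.67 ± 0.26 and 2.15 ± 0.26. Ifnar2 fell in TH1 and TH17 of the Dohh table by 1.14 ± 0.20 and 1.21 ± 0.19, and the TH1 call was lost without Dohh-/- replicate 2 (-0.99). Ifnar1 and Jak2 fell in Treg of the Odc table by 1.23 ± 0.15 and 1.39 ± 0.17.

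Stat2 fell in TH1 of the Dohh table by 1.52 ± 0.21, and Jak1 and Tyk2 were called nowhere. Among 8 negative regulators, Socs3, an inhibitor of cytokine receptor signalling, fell in TH2 of the Odc table by 2.15 ± 0.29 and in TH1, TH2 and TH17 of the Dohh table by 1.62 ± 0.27, 1.74 ± 0.27 and 2.31 ± 0.27. Socs1, the inhibitor that binds Jak kinases, rose in Treg of the Dohh table by 1.49 ± 0.22. Pias1, which restrains cytokine signalling in the nucleus, fell in Treg of the Odc table by 1.17 ± 0.11 on the log2 scale.

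**Figure D5:**
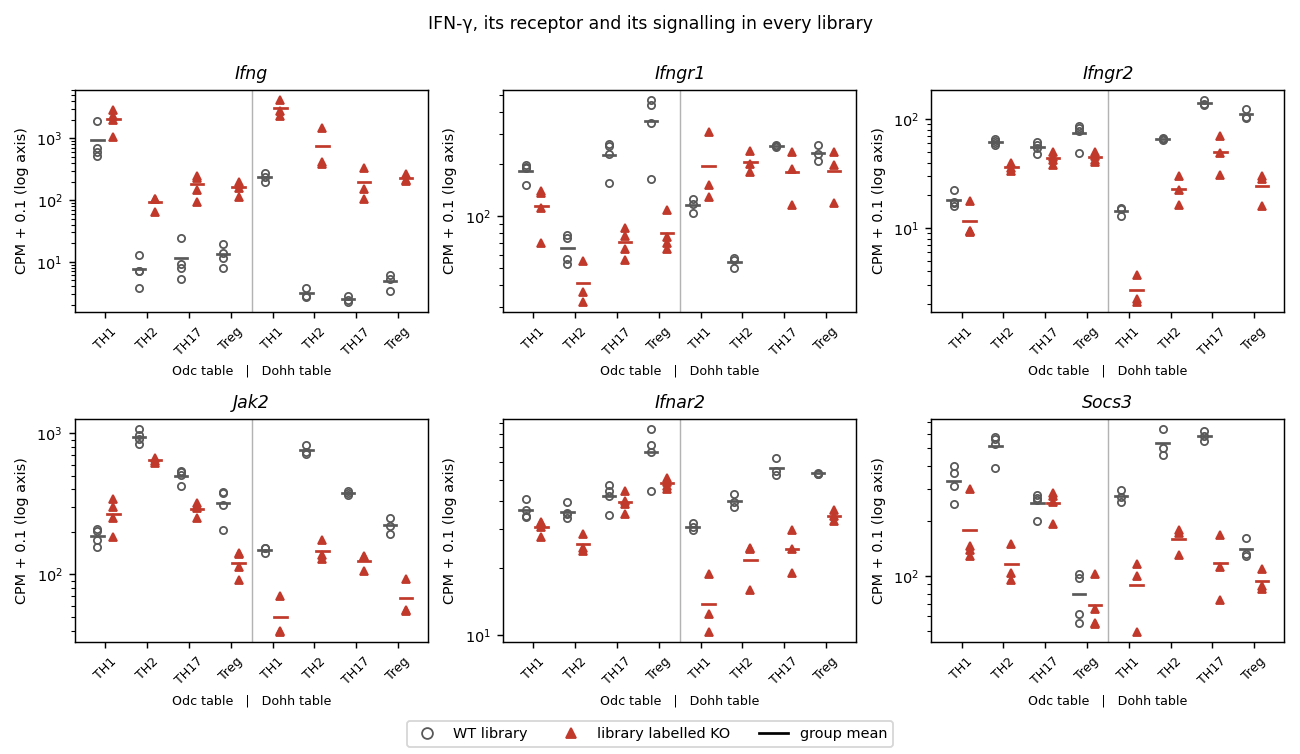
CPM in every library of Ifng, Ifngr1, Ifngr2, Jak2, Ifnar2 and Socs3, by subset, table and label. The vertical axis is log-scaled CPM with 0.1 added, each point is 1 library and the bars are group means. Ifng in TH2 of the Dohh table sits between 2.54 and 3.70 CPM in WT and between 379 and 1499.9 CPM in libraries labelled Dohh-/-, while Ifngr2 and Jak2 sit lower than WT.

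Further interferon-stimulated genes, from a longer list, moved in both directions. Of 34 tested in the Odc table, 8, 9, 10 and 9 were higher in TH1, TH2, TH17 and Treg (23.5%, 26.5%, 29.4% and 26.5%, against 8.35% to 13.9% of all genes) and 1, 2, 4 and 7 lower (2.94%, 5.88%, 11.8% and 20.6%, against 7.21% to 13.6%). Of 32 tested in the Dohh table, 7, 14, 16 and 14 were higher (21.9%, 43.8%, 50% and 43.8%, against 14.3% to 17.5%) and 6, 3, 2 and 4 lower (18.8%, 9.38%, 6.25% and 12.5%, against 11.6% to 15.2%). The chemokine gene Cxcl10 and Parp12, a mono-ADP-ribosyltransferase, were higher in all 8 comparisons, and Samhd1, which depletes nucleotides, was lower in all 8. Parp12 changed by log2 fold changes of 1.70 to 5.74, and Samhd1 of -1.09 to -2.11. Ciita, the transactivator of MHC class II genes and a B cell gene, was higher in 7 of the 8 comparisons and not in TH1 of the Dohh table (1.28 ± 0.99). In Treg of the Odc table it rose by 3.47 ± 0.37, beside B cell markers at 24.2 to 203 CPM against 3.31 to 6.45 CPM in WT. Its TH2 call in the Dohh table (1.80 ± 0.66) was lost without Dohh-/- replicate 2 or 3 or WT replicate 2 or 3 (1.24 to 1.84), and its TH17 call (1.89 ± 0.63) without Dohh-/- replicate 2 or WT replicate 2 or 3 (1.57 to 1.74), or without the 4 myeloid-rich libraries (0.79). Of 13 sensors and adaptors in the Odc table, 2, 2, 1 and 2 were higher and 1, 2, 1 and 1 lower, and of 11 in the Dohh table, 1, 3, 4 and 1 were higher and 2, 1, 0 and 2 lower. Of 16 further presentation genes, 1, 1, 2 and 2 were higher in the Odc table and 1 was lower, in Treg, while 4, 4, 5 and 5 were higher in the Dohh table and 2 were lower, in Treg. For both lists the shares in the Odc table, 6.25% to 15.4% higher, lay near those of all genes given above. For Dohh, 9.09%, 27.3%, 36.4% and 9.09% of the sensors and adaptors and 25.0%, 25.0%, 31.2% and 31.2% of the presentation genes were higher, against 14.8%, 14.3%, 17.3% and 17.5% of all genes.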

How the data were processed

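RNA-seq libraries labelled as CD4 T cells of WT, Odc-/- or Dohh-/- mice in 4 subsets were read from 2 tables. These held whole-number read counts per gene, deposited by the authors without normalization. Per the study's methods the authors aligned reads with STAR and counted them with featureCounts, and the submitters' processing notes name build mm10. Annotation and strand setting are not given in the sources used here, so reads of overlapping or near-identical genes may be shared. All columns of libraries were used. IDs were matched to GENCODE M21, which held 47310 of 47937 genes.

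Each table was fitted with edgeR 4.0.16 in R 4.3.3 (TMM, filterByExpr, robust quasi-likelihood test, all 8 groups sharing 1 estimate of the spread), with 13839 genes tested in the Odc table, 13897 in the Dohh table and 14850 in the fit of both. P-values were Benjamini-Hochberg adjusted over all genes, and the SE is the fold change divided by the root of F. The fits were tested on simulated data, of which no result is given here. Members and lists were chosen with earlier results of these data known. Members named are those called in 1 direction in all 4 subsets of a table, the 3 largest rises and falls per genotype comparison, those called in both directions and the 3 largest differences per WT comparison. Members outside this rule were named after their values were seen. Ratios of groups with 1 to 3 counts carry 95% counting intervals, and a group at 0 was set to 3 counts; both cover counting error only.

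Same-numbered WT libraries of the Odc table deviated together across subsets (correlations of 0.2527 to 0.6529), so these numbers pair libraries, as read from the data and not from the labels. Same-numbered labelled libraries correlated across subsets at 0.0025 to 0.5843 (Odc) and -0.3594 to 0.7105 (Dohh). WT and labelled libraries of 1 subset correlated at -0.1121 to 0.254 (Odc, median 0.0053) and -0.0411 to 0.1833 (Dohh, median 0.0037), and were not treated as paired. Alternatives were relative log expression factors, library totals, DESeq2 1.42.0, no low-count filter, a replicate block, the 2 groups alone, adjusted p alone and each library left out. A block within genotype and the omission of 4 myeloid-rich libraries were chosen after seeing the data.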

Additional observations from a re-analysis of the deposited data

Results flagged for a closer look

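The 22 members named by the rule above, chosen in part for large or opposite changes, were screened in each group of 4 libraries of the Odc table. Each set was 1 member in 1 group, and other members were not screened. Of 154 sets, 19 held a value far from the others by Dixon's criterion, where chance gives about 1 in 20 for independent, normally spread values. These sets share libraries, and some lie near the limit of detection, so this number shows no excess of outlying libraries. Replicate 3 of Odc-/- TH17 was high for Irf9 (59.9 CPM), Isg15 (7.99 CPM) and Oas1a (2.66 CPM). Replicate 4 of WT TH17 was low for Ddx58 (34.0 CPM) and high for Iigp1 (12.4 CPM) and Zbp1 (39.0 CPM), and replicate 3 of WT TH17 was low for Oasl2 (0.0 CPM). Replicate 1 of Odc-/- Treg was high for Ifit3 (3.83 CPM) and high for Mx1 (6.21 CPM), and replicate 4 was low for Gbp6 (16.8 CPM). In WT Treg, Gbp5 was low in replicate 2 (101 CPM) and Iigp1 was high in replicate 4 (127 CPM). In Odc-/- TH1, replicate 1 was low for Gbp5 (146 CPM) and low for Psmb10 (69.3 CPM), and replicate 2 was low for Gbp6 (37.8 CPM). In WT TH1, replicate 4 was low for Ddx58 (27.7 CPM) and held the only count of Rtp4 (0.148 CPM). In WT TH2, Gbp2 was high in replicate 1 (157 CPM) and Zbp1 was low in replicate 2 (7.74 CPM).

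The response of 2 members was called in opposite directions in different subsets of 1 table, with a test of the difference among subsets. How many of all genes did so is not given here. These were Rtp4 in the Odc table (edgeR interaction, adjusted p = 0.000264) and Xaf1 in the Odc table (adjusted p = 0.000117) and in the Dohh table (adjusted p = 0.000817).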

How the results depend on the processing

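Counts of members called stayed within 1.5 times the main count under relative log expression factors, library totals, DESeq2, a fit of the 2 groups alone and the replicate block, and 0 of 345 single-gene calls reversed under any alternative. With adjusted p alone the counts rose to 22, 24, 26 and 24 in TH1, TH2, TH17 and Treg of the Odc table, to 20 in TH1 and 20 in Treg of the Dohh table, to 23, 23 and 28 for WT TH1 against TH2, TH17 and Treg (Odc), to 20 and 13 against TH17 and Treg (Dohh), and to 17 for the difference of effects in Treg. Of all genes 47.8% to 59.8% (Odc) and 45.3% to 53.4% (Dohh) passed that threshold in the genotype comparisons, 10.6% to 48.9% in the WT comparisons and 26.2% in the difference of effects in Treg. Without the low-count filter the difference of effects in TH1 fell from 6 to 3 members. Without the 4 myeloid-rich libraries the interaction of the Dohh table fell from 16 to 9 and the difference of effects in TH17 from 14 to 8. The cause was not tested. With a replicate block 11 members were called in TH1 of the Dohh table against 10 without it, and it lost 1 single-gene call, the interaction of H2-K1 in the Dohh table (adjusted p = 0.0522, edgeR). The block within genotype lost 2, the interactions of Irf1 (adjusted p = 0.0639, edgeR) and H2-K1 (adjusted p = 0.0625, edgeR), both in the Dohh table. In that table same-numbered WT libraries correlated at -0.0077 to 0.4142, and the pairing of WT libraries above was seen in the Odc table.

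Leaving out 1 library, genotype counts ranged from 7 to 12, 11 to 14, 8 to 12 and 10 to 12 (Odc TH1, TH2, TH17, Treg) and from 9 to 15, 16 to 18, 21 to 23 and 10 to 13 (Dohh). WT counts ranged from 10 to 12, 14 to 16 and 13 to 16 (Odc, against TH2, TH17, Treg) and from 7 to 8, 11 to 14 and 6 to 9 (Dohh). Interaction counts ranged from 25 to 29 (Odc) and 12 to 26 (Dohh). Leaving out 1 replicate number, the differences of effects ranged from 3 to 8, 5 to 10, 9 to 16 and 8 to 15 (TH1, TH2, TH17, Treg). Of 103 member calls against WT, 18 were lost without 1 library, and of all 345 single-gene calls 67 were. Depth limits members whose WT groups held few counts, among them Rtp4, Rsad2, Ifit3, Oasl2 and Oas1a.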
